A study of Mus musculus with 16 samples.

Results

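The brush border hydrolases described here are 9 genes, of the 23299 genes in the deposited values, that encode enzymes of the apical membrane of enterocytes. They were chosen by name, as 4 disaccharidases (Sis, Mgam, Lct and Treh) and 5 peptidases (Anpep, Dpp4, Enpep, Mep1a and Mep1b), and their values were found through 30 transcripts. Enterocytes carry these enzymes on microvilli facing the gut lumen. The question was how far their mRNA in the terminal ileum differed between diets and between Tas1r3 genotypes. Tas1r3 encodes a subunit shared by the sweet and umami taste receptors.

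All mice were C57BL/6. They were Tas1r3-/- animals carrying the germline Tas1r3tm1Csz allele, backcrossed to C57BL/6, or Tas1r3+/+ littermates, and they entered the feeding at 5 to 6 weeks of age. Mice had free access to normal diet (ND; D12450J pellets with plain water) or Western diet (WD; the 60% high-fat diet D12492 with a 30% sucrose solution) for 10 weeks. The ND-fed mice drank no sugar and ate the matching low-fat pellets, so fat and sugar changed together. RNA came from whole terminal ileum, which holds muscle, crypt and immune cells beside enterocytes. In bulk tissue, fewer enterocytes and less hydrolase mRNA per enterocyte cannot be told apart. The labels give 2 males and 2 females in each of the 4 groups. For ND-fed Tas1r3-/- mice, both female columns equaled weighted means of the male columns in all 30 member transcripts, so these columns were left out and this group holds 2 males. In WD-fed Tas1r3-/- mice the female columns were also related to each other and were averaged, which leaves 2 males and 1 female. The 13 libraries used are therefore 4, 2, 4 and 3 for ND-fed Tas1r3+/+, ND-fed Tas1r3-/-, WD-fed Tas1r3+/+ and WD-fed Tas1r3-/- mice.

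Sucrase-isomaltase (Sis) splits sucrose and the branch points of starch, maltase-glucoamylase (Mgam) releases glucose from maltose and longer starch fragments, lactase (Lct) splits the sugar of milk, and trehalase (Treh) splits trehalose. Aminopeptidase N (Anpep), dipeptidyl peptidase 4 (Dpp4) and glutamyl aminopeptidase (Enpep) trim peptides from the amino end, and meprin alpha and beta (Mep1a and Mep1b) are metalloendopeptidases. All are made by absorptive cells as these move up the villus, and the sugars and amino acids they release are taken up by transporters beside them. Lactase is known to fall at weaning and to be low in the distal small intestine.

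Promoters are shown for Sis and Mgam, which shared a pattern between diets in the measurements described further on, and for Mep1a, which is described between genotypes. RefSeq promoter sequences on GRCm38.p6 were matched for 8 of the 9 genes. The 250 bases before the RefSeq start are printed 5′ to 3′, with capitals where the letters TTTAT (for CDX proteins), GTTAAT (an HNF1 half-site), CAAAGT (for HNF4) or AGATAA (for GATA proteins) occur on either strand.
Sis, chr3:72967864-72968113 (minus strand): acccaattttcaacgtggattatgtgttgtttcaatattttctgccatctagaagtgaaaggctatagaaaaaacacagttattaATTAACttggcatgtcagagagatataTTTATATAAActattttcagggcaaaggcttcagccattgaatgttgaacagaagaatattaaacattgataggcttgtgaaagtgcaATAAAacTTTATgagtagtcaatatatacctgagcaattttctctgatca
Mgam, chr6:40628581-40628830 (plus strand): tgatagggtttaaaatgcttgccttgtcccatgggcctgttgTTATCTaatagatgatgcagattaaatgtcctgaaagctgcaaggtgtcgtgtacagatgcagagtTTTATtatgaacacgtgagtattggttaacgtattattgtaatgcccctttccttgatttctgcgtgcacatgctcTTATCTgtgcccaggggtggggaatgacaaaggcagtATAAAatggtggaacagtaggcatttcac
Mep1a, chr17:43502774-43503023 (minus strand): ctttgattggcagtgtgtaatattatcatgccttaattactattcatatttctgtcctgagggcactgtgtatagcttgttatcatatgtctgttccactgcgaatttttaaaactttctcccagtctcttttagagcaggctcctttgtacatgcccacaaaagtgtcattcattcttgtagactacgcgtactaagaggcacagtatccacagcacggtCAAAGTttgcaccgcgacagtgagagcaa
The Sis stretch held 4 TTTAT matches, 2 of them side by side on opposite strands, and 1 GTTAAT match. The Mgam stretch held 2 TTTAT and 2 AGATAA matches, as did that of Lct. The Mep1a stretch held a single CAAAGT match. Among all 32851 promoter stretches of this length, 37.3% held TTTAT, 6.43% held GTTAAT, 12.6% held CAAAGT and 9.99% held AGATAA. The GC content of the stretch was 31.6% for Sis, 42.4% for Mgam and 41.6% for Mep1a, with a median of 52.4% over all stretches. A match is a string of letters and not a tested site. In the GENCODE annotation of GRCm38 the genes lie at chr3:72888557-72967863 (Sis), chr6:40628831-40769123 (Mgam), chr7:79821803-79861059 (Anpep) and chr17:43474324-43502812 (Mep1a), and the values count their exons. GENCODE transcripts of a gene do not all begin at the RefSeq start. It is the start of Sis-202, Mgam-201, Mgam-202 and Mep1a-201, while Sis-201 begins 997 bases inside the gene from there, and the Mep1a stretch covers the start of Mep1a-202, which lies upstream of that of Mep1a-201. The Anpep stretch is not shown, because the RefSeq start is that of Anpep-202, and Anpep-201, the main coding transcript in these values, begins 5858 bases further inside the gene.

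Values are RPKM, read counts divided by transcript length and library size, summed over the transcripts of a gene and divided by a scaling factor per library (scaled RPKM). The implied library totals were about 7204410 to 14460700 reads, and Lct, the lowest member, rested on about 4 to 99 reads per library. The labels do not say more than that libraries were separate samples, so p-values measure the spread between these samples only. The deposited values of a library summed to 817011 to 819916 on ND and to 542371 to 672933 on WD, so diet and the authors' library total cannot be told apart in unscaled levels. Ratios within a library do not depend on that total. Tas1r3 lay between 1.80 and 6.27 RPKM in the Tas1r3+/+ libraries and at or under 0.00452 RPKM in the Tas1r3-/- libraries, which is less than the value of 1 read (0.0196 RPKM or more). Of the 13 Tas1r3 values, 3 had more digits than the quantification wrote elsewhere, whereas no member value did. One library stood apart. Male 1 of the WD-fed Tas1r3-/- mice had a mean log2 level of 12 structural brush border genes of 5.16, against 6.40 to 7.92 in the other 12 libraries, and the highest smooth muscle marker sum.

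All members but Lct were abundant. In ND-fed Tas1r3+/+ mice, the scaled RPKM was 3391 ± 527 (mean ± SD, n = 4) for Anpep, 549.7 ± 175 for Enpep, 303 ± 63.7 for Mep1a and 281 ± 87.8 for Mep1b. It was 267 ± 68.1 for Mgam, 196 ± 93.5 for Sis, 164 ± 49.0 for Dpp4 and 30.9 ± 20.7 for Treh. Anpep lay above Enpep and Enpep above Mep1a in every library without overlap, and Dpp4 likewise lay above Treh. The neighbours between Mep1a and Dpp4 in this order overlapped. Anpep alone made up 0.426% to 0.643% of all RPKM in these 4 libraries. Lct had 0.0746 to 1.17 RPKM in all 13 libraries, below 1 RPKM in all but 1 of them, and did not pass the filter of 1 RPKM in 2 libraries. The remaining 8 members were tested among 19042 genes.

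**Figure D1:**
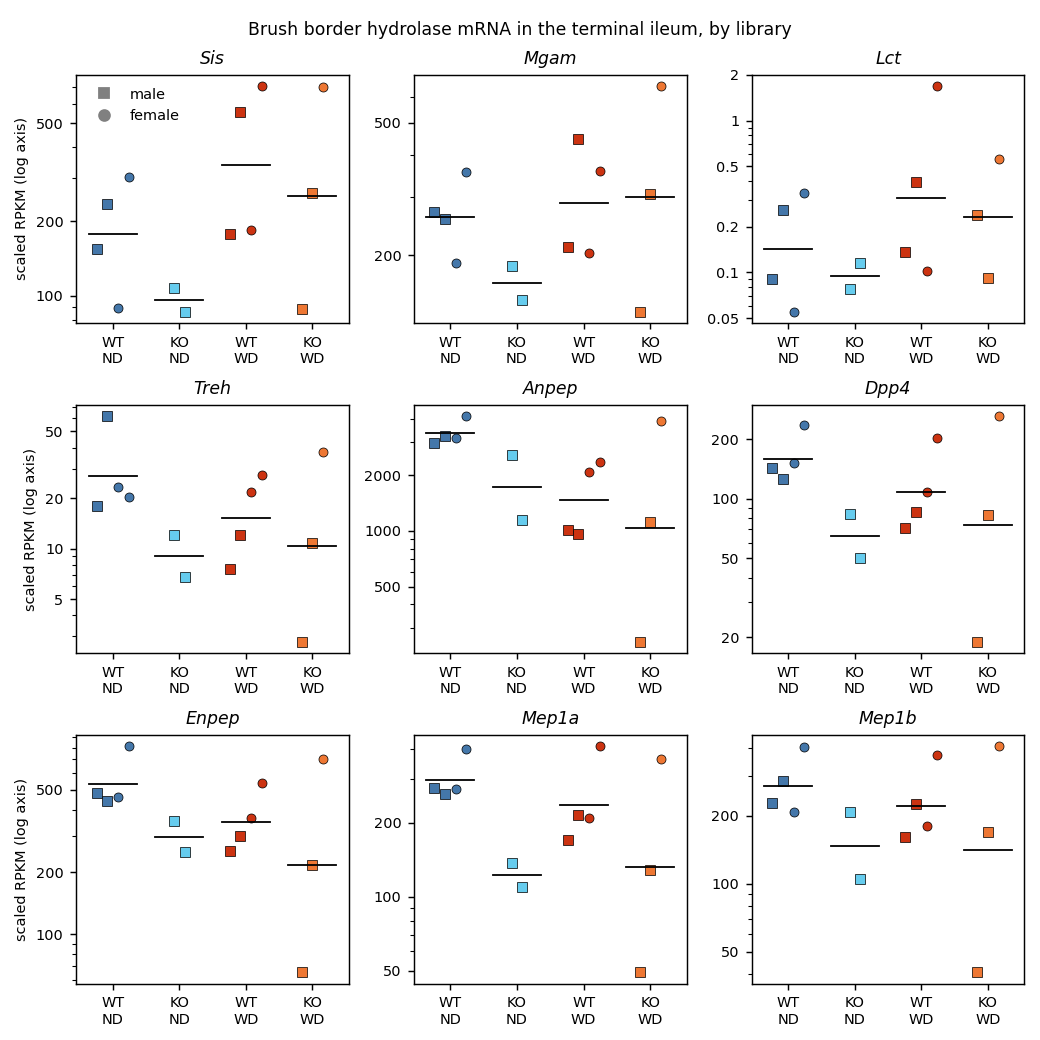
Scaled RPKM of the 9 hydrolase genes (log axis) in ND-fed and WD-fed wild-type (WT) and Tas1r3-/- (KO) mice, 1 point per library, squares for males and circles for females, with bars at the geometric mean of each group. Anpep separated the diets in wild-type mice, at 2987 to 4165 on ND and 959 to 2348 on WD, and the lowest point of the WD-fed knockout group in 8 of the 9 panels is the same male.

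Among the disaccharidases, Sis had scaled RPKM of 154, 236, 89.5 and 304 (males 1 and 2, females 1 and 2) in ND-fed Tas1r3+/+ mice and 178, 554, 184 and 708 in WD-fed Tas1r3+/+ mice. In Tas1r3-/- mice it was 108 and 85.9 on ND, and 88.5 and 261 in the males and 702 in the female on WD. Each of the 2 WD groups held both high and low libraries, and their ranges overlapped those on ND. The log2 fold change (WD against ND, on the log2(scaled RPKM + 0.5) scale) was 0.92 (SE 0.63) in Tas1r3+/+ and 1.39 (SE 0.82) in Tas1r3-/- mice (limma, adjusted p = 0.498 and 0.921).

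Mgam was at 269, 257, 189 and 355 in ND-fed and 211, 449, 202 and 357 in WD-fed Tas1r3+/+ mice. It was 185 and 146 on ND and 135, 304 and 646 on WD in Tas1r3-/- mice. The diets overlapped in both genotypes, with log2 fold changes of 0.14 (SE 0.42; -0.34 without scaling) and 0.86 (SE 0.54) and limma adjusted p of 0.894 and 0.937. Treh ranged from 18.0 to 61.8 in ND-fed and from 7.56 to 27.4 in WD-fed Tas1r3+/+ mice, and its log2 fold change was -0.79 (SE 0.66). The Treh gene overlaps Phldb1 on the opposite strand, and the sources used here do not say whether the counting used strand.

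Anpep was the peptidase with the widest gap between diets. Its scaled RPKM was 2987, 3236, 3176 and 4165 in ND-fed and 1006, 959, 2079 and 2348 in WD-fed Tas1r3+/+ mice. All WD values lay below all ND values, in males and in females, and WD-fed males were lowest. The log2 fold change was -1.19 (SE 0.67), a 2.28-fold lower geometric mean. The two-sided exact permutation test gave p = 0.0286, the smallest that 4 against 4 libraries allow, whereas limma, which shares the spread over all groups, gave an unadjusted p of 0.0988 and an adjusted p of 0.407. Non-overlap with lower values on WD was found in 5.95% of the genes tested. Anpep in Tas1r3-/- mice was 2565 and 1144 on ND and 250.3, 1119 and 3902 on WD, and these overlapped. The log2 fold change there was -0.73 (SE 0.86). In that genotype 10.5% of the genes were lower on WD without overlap, and none of the 8 members was.

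The other peptidases overlapped between diets. In Tas1r3+/+ mice, Enpep was 483, 443, 461 and 811 on ND and 254, 298, 365 and 539 on WD, a log2 fold change of -0.61 (SE 0.55). Dpp4 was 143, 126, 152 and 236 on ND and 71.0, 85.6, 109 and 203 on WD, a log2 fold change of -0.57 (SE 0.62). For both, the 3 lowest WD libraries lay below every ND library and female 2 did not. The log2 fold changes of the meprins were -0.34 (SE 0.48) for Mep1a and -0.29 (SE 0.56) for Mep1b, and both turned positive relative to the structural genes described further on. The corresponding log2 fold changes in Tas1r3-/- mice were -0.45 (SE 0.71) for Enpep, 0.20 (SE 0.79) for Dpp4, 0.11 (SE 0.62) for Mep1a, -0.06 (SE 0.72) for Mep1b and 0.23 (SE 0.85) for Treh.

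By the study's rule for differentially expressed genes (fold change of at least 2 and adjusted p under 0.01), no member was called in any comparison. The same rule called 0.00525% of the genes tested for diet in Tas1r3+/+ mice, 0.0% for diet in Tas1r3-/- mice, 0.0% and 0.0105% for genotype on ND and on WD, 0.0% for the interaction and 0.042% for sex. At an unadjusted p under 0.05, 0 of 8 members passed for diet in Tas1r3+/+ mice, where 15.6% of all genes did. The count was 0 of 8 for diet in Tas1r3-/- mice (background 5.65%), 0 of 8 for genotype on WD (2.62%) and 0 of 8 for the genotype by diet interaction (1.43%). The 95% intervals of the 8 diet effects in Tas1r3+/+ mice all included 0 and were wide, from -0.45 to 2.29 for Sis and from -2.64 to 0.26 for Anpep, so a 2-fold difference in either member lay within its interval.

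**Figure D2:**
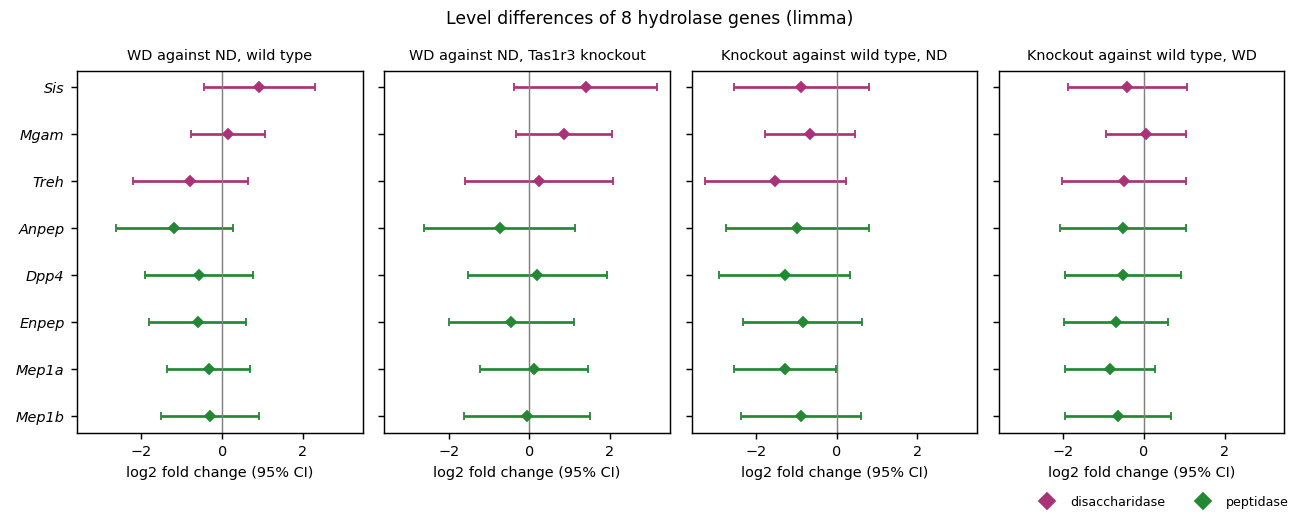
Log2 fold changes of the 8 tested hydrolase genes with 95% confidence intervals (limma, scaled RPKM with a pseudocount of 0.5) for 2 diet and 2 genotype comparisons, with disaccharidases in magenta and peptidases in green. Every interval but that of Mep1a between genotypes on ND includes 0, and Sis has the highest point estimate in both diet panels.

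The levels of most members followed those of the microvillus itself. Over the 13 libraries, the Pearson correlation with the mean log2 level of 12 structural brush border genes (among them villin, ezrin and the microvillar cadherins) was 0.98 for Enpep, 0.97 for Dpp4 and Mep1b, 0.96 for Mep1a, 0.93 for Anpep and 0.88 for Treh. It was 0.71 for Mgam and 0.61 for Sis. Sis and Mgam correlated with each other at 0.93, and Sis with Anpep at 0.31. These values are descriptions over libraries that share groups and scaling. Genes outside the members whose log2 levels were among the most like the mean of the 8 members were Ces2e (r = 0.987), Cdhr5 (0.983), Fbxo25 (0.982) and Tnfaip1 (0.982). Cdhr5 is itself one of the structural genes.

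**Figure D3:**
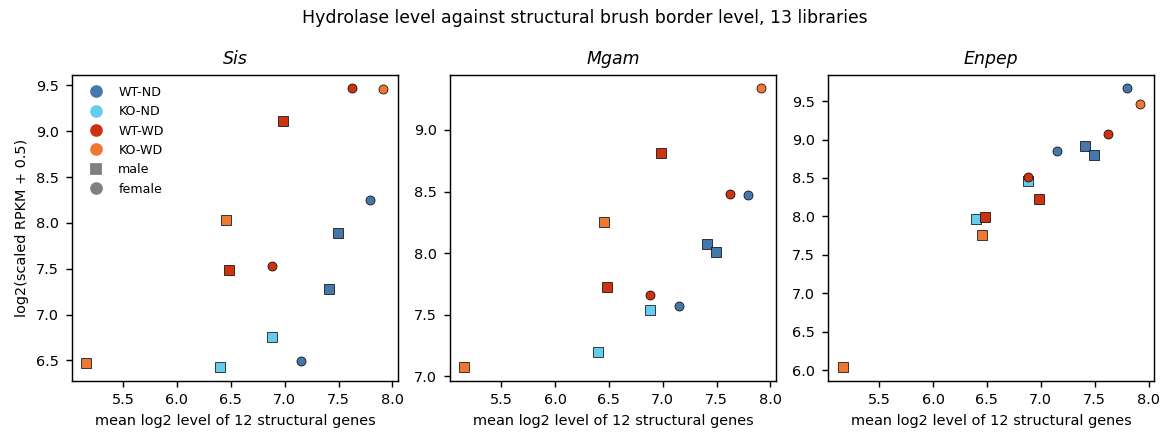
Log2(scaled RPKM + 0.5) of Sis, Mgam and Enpep against the mean log2 level of 12 structural brush border genes in the same library, colored by group, with squares for males and circles for females. Enpep follows 1 line through all 13 libraries (r = 0.98), whereas Sis and Mgam of WD-fed mice lie above the ND-fed mice of similar structural level.

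Each member was therefore also set against the structural genes of its own library, as its log2 level minus their mean log2 level. This relative level does not depend on the scaling or on the library total. For Sis it was -0.13, 0.39, -0.66 and 0.45 in ND-fed and 1.00, 2.14, 0.65 and 1.85 in WD-fed Tas1r3+/+ mice. In Tas1r3-/- mice it was -0.12 and 0.03 on ND and 1.32, 1.58 and 1.54 on WD. All 7 WD libraries lay above all 6 ND libraries. The difference was 1.39 on the log2 scale in Tas1r3+/+ mice (2.63-fold, exact permutation p = 0.0286, the smallest possible) and 1.52 in Tas1r3-/- mice (2.87-fold, exact permutation p = 0.1, the smallest that 3 against 2 libraries allow).

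For Mgam, the relative level was 0.66, 0.51, 0.42 and 0.68 in ND-fed and 1.24, 1.83, 0.78 and 0.86 in WD-fed Tas1r3+/+ mice. It was 0.66 and 0.79 in ND-fed and 1.92, 1.80 and 1.42 in WD-fed Tas1r3-/- mice. WD and ND did not overlap within either genotype, although WD-fed female 1 of the Tas1r3+/+ mice lay just under the higher ND-fed Tas1r3-/- male. The differences were 0.61 (exact permutation p = 0.0286) and 0.99 (exact permutation p = 0.1), both the smallest p possible. With libraries exchanged between diets only within their genotype, the mean differences over both genotypes were 1.46 for Sis and 0.80 for Mgam, each with an exact permutation p of 0.00143, the smallest of 700 arrangements. This stratified test was added after the values had been seen. The non-overlap within each genotype fixed its p at the smallest possible, so it adds nothing to that non-overlap.

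Relative to the structural genes, the median of all tested genes was itself 0.50 higher on WD in Tas1r3+/+ mice and 0.13 higher in Tas1r3-/- mice. The difference of Mgam in Tas1r3+/+ mice was thus close to that of the median gene, whereas those of Sis, and of Mgam in Tas1r3-/- mice, lay above it. Higher relative levels on WD without overlap were found in 10.4% of the genes in Tas1r3+/+ mice, in 1.42% in Tas1r3-/- mice and in 0.373% in both genotypes. In limma fits of the relative levels, Sis gave an unadjusted p of 0.00209 and an adjusted p of 0.772 in Tas1r3+/+ mice, where 4.02% of genes were higher on WD at an unadjusted p under 0.05. Sis and Mgam passed that threshold in Tas1r3-/- mice, with an unadjusted p of 0.00727 and an unadjusted p of 0.0395 in limma, as did 0.299% of genes in this direction. Neither passed after adjustment. With 6 enterocyte markers in place of the structural genes, the Sis and Mgam differences in Tas1r3+/+ mice were 1.12 and 0.33 and no longer passed (exact permutation p = 0.114 and 0.371), and those in Tas1r3-/- mice were 1.52 and 0.98.

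**Figure D4:**
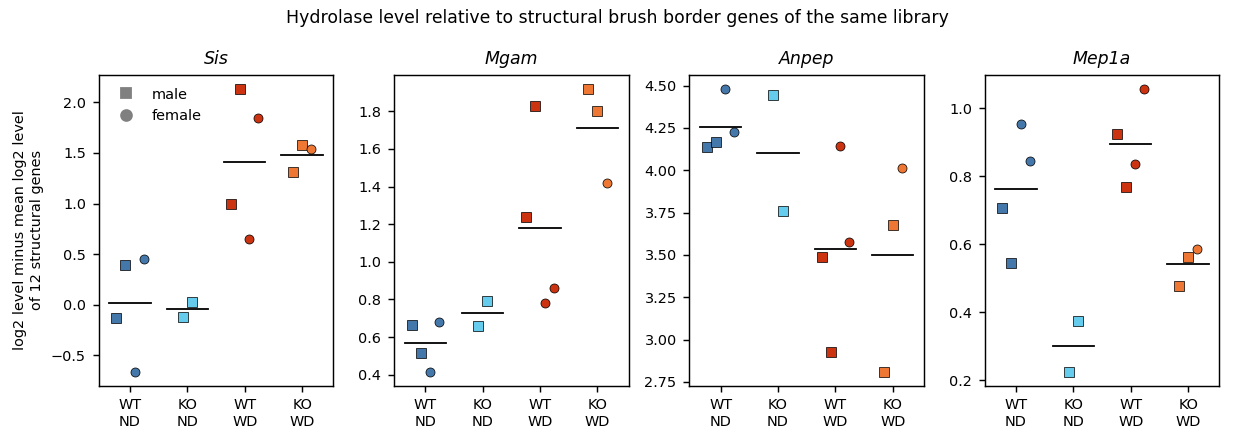
Log2 level of Sis, Mgam, Anpep and Mep1a minus the mean log2 level of 12 structural brush border genes of the same library, by group, 1 point per library (squares for males, circles for females), with bars at group means. Sis lies between -0.66 and 0.45 in the ND-fed and between 0.65 and 2.14 in the WD-fed libraries, and Mep1a lies lower in knockout than in wild-type mice on each diet.

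The peptidases differed less on this scale, or the other way. The relative level of Anpep was 4.14 to 4.48 in ND-fed and 2.93 to 4.14 in WD-fed Tas1r3+/+ mice, a difference of -0.72 (exact permutation p = 0.0571), and it differed by -0.60 in Tas1r3-/- mice (exact permutation p = 0.4). The ND and WD ranges met at WD-fed female 1. Over both genotypes the Anpep difference was -0.66 (exact permutation p = 0.0229, 700 arrangements). Mep1a was higher on WD in the same test, by 0.19 (exact permutation p = 0.0271), and Dpp4, Enpep, Mep1b and Treh gave exact permutation p of 0.127 to 0.949. Adjustment over members was not made for these p. Dpp4, Enpep, Mep1a, Mep1b and Treh differed by -0.10, -0.14, 0.13, 0.18 and -0.32 in Tas1r3+/+ mice, all with overlapping ranges. The relative level of Enpep in Tas1r3-/- mice was lower on WD without overlap (-0.32), as for 0.63% of genes. That of Mep1a was higher without overlap (0.24), as for 1.42% of genes. On this scale the median tested gene was 0.50 higher on WD in Tas1r3+/+ mice, above the Mep1a difference of 0.13 there. The median gene was 0.13 higher in Tas1r3-/- mice.

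Within a library, the ratio of Sis to Anpep RPKM showed the same parting without any reference list. It was 0.0517, 0.0729, 0.0282 and 0.0729 in ND-fed Tas1r3+/+ mice and 0.0420 and 0.0750 in ND-fed Tas1r3-/- mice. It was 0.177, 0.578, 0.0885 and 0.301 in WD-fed Tas1r3+/+ mice and 0.353, 0.233 and 0.180 in WD-fed Tas1r3-/- mice. Every WD library lay above every ND library. This ratio was chosen after the values had been seen and was not tested. It sets the member with the highest log2 fold change for diet over the member with the lowest. The Mgam to Anpep ratio did not overlap within a genotype. Across genotypes it did, at 0.0972 in WD-fed Tas1r3+/+ female 1 and 0.128 in ND-fed Tas1r3-/- male 2. The Sis to Mgam ratio overlapped in Tas1r3+/+ mice, at 0.847 in WD-fed male 1 and 0.920 in ND-fed male 2.

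Between genotypes, all 8 tested members had lower geometric means in Tas1r3-/- than in Tas1r3+/+ mice on ND, with log2 fold changes of -1.53 to -0.66 (median -0.93, against 0.02 over all genes). For 7 of the 8, Sis being the exception, both Tas1r3-/- males lay below all 4 Tas1r3+/+ mice, as did 13.6% of all genes. Mep1a was 277, 262, 275 and 398 in Tas1r3+/+ and 137 and 109 in Tas1r3-/- mice. The log2 fold change was -1.28 (SE 0.59; limma, unadjusted p of 0.0481, adjusted p = 0.891). It was the only member with an unadjusted p under 0.05, as 4.83% of genes had, and this was lost when any 1 of 10 of the 13 libraries was left out. Without male 1 of the WD-fed Tas1r3-/- mice 3 members passed, as did 5.84% of genes, and without the female of that group 3 members and 7.38% of genes did. With only the 2 groups compared in the fit, 7 members and 11.8% of genes passed. The 12 structural genes were lower together with the members (median -0.85, 12 of 12 below 0), and the smooth muscle marker sum was 1942 and 3804 in Tas1r3-/- against 1094 to 3425 in Tas1r3+/+ mice, with all 6 markers detected. Other marker lists differed as well, some of them in the direction opposite to the members. All 4 Paneth cell markers had positive log2 fold changes (median 1.17, 2 with an unadjusted p under 0.05), with summed levels of 5792 and 10949.7 in Tas1r3-/- against 2166 to 8158 in Tas1r3+/+ mice. Of 5 crypt markers 4 were positive (median 0.38), among them Top2a at 0.97 with an unadjusted p under 0.05. All 6 villus tip markers were negative (median -1.05, 2 with an unadjusted p under 0.05). The part of these markers in the result was not tested. Genotype and sex cannot be separated fully here, since the Tas1r3-/- group on ND holds males only.

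On WD, the members' log2 fold changes between genotypes ran from -0.84 for Mep1a to 0.05 for Mgam (median -0.52, against -0.04 over all genes). No member was lower in Tas1r3-/- mice without overlap, as 1.5% of genes were. Among the 7 WD-fed libraries, male 1 of the Tas1r3-/- group was lowest for all 8 tested members and the female of that group was first or second. Without the female, 5 members had an unadjusted p under 0.05, as did 9.95% of genes in that fit. The summed Paneth cell markers were 7560 to 10758 in Tas1r3-/- and 2671 to 5079 in Tas1r3+/+ mice on WD, without overlap, and their part in the result was not tested.

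Mep1a was also compared between genotypes relative to the structural genes. Its relative level was 0.71, 0.55, 0.96 and 0.84 in Tas1r3+/+ and 0.23 and 0.38 in Tas1r3-/- mice on ND, a difference of -0.46 (exact permutation p = 0.0667, the smallest possible). On WD it was 0.92, 0.77, 0.84 and 1.06 in Tas1r3+/+ and 0.48, 0.56 and 0.59 in Tas1r3-/- mice, a difference of -0.35 (exact permutation p = 0.0286, the smallest possible). The genotypes did not overlap on either diet, the difference being 1.38-fold and 1.28-fold. In limma fits of the same relative levels, Mep1a did not pass, with an unadjusted p of 0.255 and an adjusted p of 0.514 on ND and an unadjusted p of 0.321 and an adjusted p of 0.859 on WD. Relative to the structural genes, the median of all tested genes was itself 0.84 higher in Tas1r3-/- mice on ND and 0.45 higher on WD. A lower relative level thus runs against that shift, and the shares that follow depend on it. Lower relative levels in Tas1r3-/- mice without overlap were found in 0.41% of genes on ND, 0.152% on WD and 0.0263% on both diets. The last share is 5 genes, which are Mep1a, Naaladl1 (a brush border peptidase), Cubn (the cubilin receptor for intrinsic factor with vitamin B12), Aoc1 (diamine oxidase) and Tas1r3 itself. Mep1b, whose product pairs with meprin alpha, differed by -0.06 on ND and -0.17 on WD, with overlap. With the enterocyte markers as reference, the Mep1a difference on WD was -0.02. With Vil1 alone as reference it was -0.25 (exact permutation p = 0.0571).

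In a model with group and sex, males were lower than females by 1.24 on the log2 scale for Anpep (SE 0.47), 1.21 for Dpp4 (SE 0.42), 1.05 for Enpep (SE 0.39) and 0.89 for Mep1a (SE 0.34). These 4 of 8 members had an unadjusted p under 0.05, as did 19.7% of genes in either direction, and their limma adjusted p were 0.149 to 0.182. The 12 structural genes also had a median of -0.72 for males against females. Relative to them 0 of 8 members passed, against 4561 of 19042 genes, of which 4524 were higher in males. The median of all tested genes was itself 0.72 higher in males on that relative scale. Markers of other cells also moved with sex. All 5 crypt markers were higher in males with an unadjusted p under 0.05 (median 0.67), as were 3 of the 4 Paneth cell markers (median of the 4, 0.97), and their part in the result was not tested. Without the WD-fed Tas1r3-/- female, 0 of 8 members passed, against 12.6% of genes.

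Transcripts of a member did not all move together. Of the 29 member transcripts tested among 43552, 3 had an unadjusted p under 0.05 for diet in Tas1r3+/+ mice (Anpep-202, Enpep-203 and Mgam-207, all lower on WD), where 14.8% of transcripts did. The count was 4 in Tas1r3-/- mice (Sis-201, Mgam-201 and Mgam-202 higher, and Mgam-207 lower), against 6.82%. Mgam-207, annotated as protein coding and 2959 bases long, had 6.54, 13.4, 15.1 and 22.3 RPKM in ND-fed and 0.745, 2.30, 0.252 and 1.40 RPKM in WD-fed Tas1r3+/+ mice. It had 6.87 and 14.1 RPKM on ND and 0.170, 0.197 and 2.47 RPKM on WD in Tas1r3-/- mice. All WD libraries lay below all ND libraries, with log2 fold changes of -2.76 (limma adjusted p = 0.0533) and -2.97 (adjusted p = 0.391), while the longer Mgam-201 and Mgam-202 (6488 bases each) had log2 fold changes of 0.41 and 0.57 in Tas1r3+/+ mice. Mgam-207 was at most 7.73% of the summed Mgam RPKM. Protein-coding transcripts held a median of 52.1% of the summed RPKM of Sis, 57.0% of Mgam, 59.9% of Anpep and 41.3% of Dpp4, and short retained-intron transcripts held most of the rest of Sis and Anpep. Mgam-208 is not in GENCODE M21 and was counted as not coding. It held 14.0% to 32.2% of the summed Mgam RPKM. With coding transcripts only, the relative differences between diets in Tas1r3+/+ mice were 1.37 for Sis, 0.64 for Mgam and -0.62 for Anpep (exact permutation p = 0.0286 for each).

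Genes around the members gave few calls. Of 15 other brush border hydrolases, 13 were tested, and in WD-fed against ND-fed Tas1r3+/+ mice none had an unadjusted p under 0.05 (median log2 fold change -0.23, examples Asah2 at 0.99 and Naaladl1 at -0.68). Of 8 transporters of sugars, amino acids and small peptides, Slc2a2, which encodes the glucose transporter GLUT2, had log2 fold changes of 1.08 in Tas1r3+/+ and 2.77 in Tas1r3-/- mice (limma, unadjusted p of 0.00594 and adjusted p of 0.795 in the latter), and the other 7 did not reach an unadjusted p under 0.05 in either. Slc5a1, the sodium glucose cotransporter, had 0.54 in Tas1r3-/- mice. Among 9 tested transcription factors known at such promoters, Cdx1 and Klf4 had log2 fold changes of -0.66 and -0.76 for WD in Tas1r3+/+ mice and an unadjusted p under 0.05 in limma, with adjusted p of 0.206 and adjusted p of 0.235. Hnf4a (-0.51) and Cdx2 (-0.33) did not reach an unadjusted p under 0.05. Ileal identity was clear in the markers, since the bile acid genes Fabp6, Slc10a2, Slc51a and Slc51b summed to 916 or more scaled RPKM in every library and the proximal list to at most 35.5, with Gata4 below 1 RPKM in every library.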

How the data were processed

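Terminal ileum mRNA of 16 labelled samples was sequenced on the Ion Proton platform. The authors aligned reads with STAR to GRCm38 and quantified Ensembl transcripts in Partek Flow. The deposited values are RPKM per transcript made by the authors, although the table is named for counts, so a count test was not used as planned and limma was run on log2 values. No columns of the authors' own comparisons were present, and 0 columns of other samples were left out.

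RPKM was summed per gene over transcripts and scaled with TMM factors (trim 30% of ratios and 5% of levels). Columns found to be weighted means of others (knockout females on ND) were dropped and the related pair of knockout females on WD was merged into its mean, which left 13 libraries. Library totals of about 7204410 to 14460700 reads were inferred from the step of low values, of which 86.5% to 87.8% were whole within 0.02 reads. Genes with at least 1 RPKM in at least 2 libraries (19042) were fitted with limma 3.58.1 (R 4.3.3) on log2(scaled RPKM + 0.5), with a mean-variance trend and 1 coefficient per group, and p was adjusted by Benjamini-Hochberg over all genes. Sex was tested in a model with group. A fold change on this scale understates that of low genes. Single values were compared with two-sided exact permutation tests over libraries. Relative levels are the log2 level minus the mean of 12 structural brush border genes.

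The members and gene lists were chosen with earlier results of these data known. Genes named are the 9 members, Tas1r3 as a check of the labels, up to 4 genes per list with the smallest p, the 5 genes most correlated with the mean member level (of which 1 is not reported here), and genes behind a count of 5 or fewer, chosen after their values were seen. Alternatives covered scaling, filter, pseudocount, related columns, trend, samples in the fit, covariates and each library left out. Centring on the structural genes, the enterocyte reference, coding transcripts only, the fit on transcripts and the stratified test were added after seeing the data. Scripts were tested on simulated data. Analysis used Python 3.11.15, numpy 2.4.6, pandas 2.3.3, scipy 1.17.1 and matplotlib 3.10.9. Transcript types and positions came from GENCODE M21 and promoter sequences from RefSeq.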

Additional observations from a re-analysis of the deposited data

Results flagged for a closer look

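Female 2 of the ND-fed Tas1r3+/+ mice stood apart from the other 3 libraries of its group for 2 members. Its log2 scaled level was 9.66 for Enpep and 8.64 for Mep1a, and in both cases the gap to the next library took up more of the range of the group (0.858 and 0.870) than the critical value of 0.829 for 4 libraries. Chance alone marks about 1 in 20 groups in this way. The library also had the highest level of its group for all other members but Treh. Its mean log2 level of the structural genes was the highest too, at 7.80 against 7.15 to 7.49. Relative to the structural genes, its Mep1a level was 0.84, below the 0.96 of female 1. Its relative Enpep level was 1.87, against 1.70 in female 1.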

How the results depend on the processing

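No member passed the study's rule in any setting. Apart from leaving out libraries, 220 summary counts of members stayed within 1.5 times and 26 moved. Of the other values, 821 stayed the same, 29 reversed, 4 became stronger and 4 weaker. A further 26, all counts over all genes, moved. The cause was not tested. The number of members with an unadjusted p under 0.05 for diet in Tas1r3+/+ mice (0) was 1 without scaling, with only the 2 groups, with sex as covariate or centred on the structural genes, and 2 in males only. In Tas1r3-/- mice it was 2 with all 16 columns, in males only or centred. For genotype on ND (1) it was 2 without scaling, with all 16 columns or in males only, 7 with only the 2 groups, and 0 with no filter, no trend, sex as covariate, WD-fed knockout female column 2 alone, coding transcripts only or centring. For genotype on WD it was 2 in males only, and for sex 0 after centring. The share of all genes also changes between settings and is not given for most of them, so these member counts are not read as results. The number of members whose relative levels did not overlap was 4 with Vil1 alone and 1 with enterocyte markers for diet in Tas1r3+/+ mice, 2 with enterocyte markers in Tas1r3-/- mice, 2 with coding transcripts for genotype on ND and 0 with enterocyte markers on WD. Shares of all genes are not given for these alternatives, so the counts cannot be set against a background.

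Log2 differences that reversed were as follows. Without scaling, diet gave -0.34 for Mgam in Tas1r3+/+ mice and -0.14 (Treh), -0.19 (Dpp4) and -0.28 (Mep1a) in Tas1r3-/- mice, where sex as covariate gave -0.077, -0.20 and -0.19 and males only gave -0.65, -0.70 and -0.62 for the same 3 genes. In that genotype Treh was -0.16 with coding transcripts and Mep1b 0.22 with all 16 columns. Mgam between genotypes on WD was -0.039 without scaling, -0.60 in males only and -0.0076 with female column 1 alone. Centring gave 0.13 (Mep1a) and 0.18 (Mep1b) for diet in Tas1r3+/+ mice, 0.070 (Mep1b) in Tas1r3-/- mice, 0.16 (Mgam) for genotype on ND and 0.071 (Sis) on WD. Relative levels for diet in Tas1r3+/+ mice gave 0.14 (Dpp4) and 0.10 (Enpep) against Vil1, -0.14 (Mep1a) and -0.10 (Mep1b) against enterocyte markers and 0.044 (Dpp4) with coding transcripts, and Treh in Tas1r3-/- mice gave -0.034 with coding transcripts.

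The labels do not say whether the replicate numbers pair the samples. Of 16 same-numbered pairs, 7 had a correlation of deviations over 0.1 (range -0.20 to 0.57). WD-fed Tas1r3+/+ female 2 and the averaged WD-fed Tas1r3-/- female, not counted among these pairs, had 0.63. These correlations cannot show whether the samples were paired. A block of sex and replicate number took the count for genotype on ND from 1 to 0 and gave -0.13 (Treh), -0.17 (Dpp4) and -0.15 (Mep1a) for diet in Tas1r3-/- mice.

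Leaving out each library gave counts of 0 to 1 and 0 to 2 for diet in Tas1r3+/+ and Tas1r3-/- mice, 0 to 3 and 0 to 5 for genotype on ND and WD, 0 to 3 for the interaction and 0 to 5 for sex. Without male 1 of the WD-fed Tas1r3-/- mice the interaction count was 3, and the share of all genes in that fit is not given here. Without the female of that group the count was 5 for genotype on WD (9.95% of genes) and 0 for sex (12.6% of genes). Directions turned in these ranges: diet in Tas1r3+/+ mice, -0.076 to 0.31 (Mgam); diet in Tas1r3-/- mice, -0.63 to 1.15 (Treh), -1.67 to 0.32 (Anpep), -0.68 to 1.21 (Dpp4), -1.29 to 0.43 (Enpep), -0.60 to 0.85 (Mep1a) and -0.80 to 0.86 (Mep1b); genotype on WD, -1.10 to 0.40 (Sis), -0.46 to 0.68 (Mgam), -1.35 to 0.44 (Treh), -1.43 to 0.56 (Anpep), -1.39 to 0.50 (Dpp4), -1.51 to 0.22 (Enpep) and -1.37 to 0.30 (Mep1b); relative levels for diet, -0.57 to 0.059 (Treh) and -0.22 to 0.010 (Dpp4) in Tas1r3+/+ mice and -0.18 to 0.32 (Mep1b) in Tas1r3-/- mice. Counts without overlap were 2 to 3 and 4 to 6 for diet, and 1 to 6 and 1 to 2 for genotype. Shares of all genes without overlap are given above for all 13 libraries only, so these counts have no background beside them. The relative Sis difference in Tas1r3+/+ mice was 1.15 to 1.65 and that of Mgam 0.39 to 0.74. With RPKM unscaled, 539 genes passed the study's rule for diet in Tas1r3+/+ mice, against 1 with scaling and 33 with all 16 columns. Few libraries per group, and not read depth, set the smallest p the exact tests could reach.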

Other observations

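The transcription factor Klf4, known in villus epithelium, had a log2 fold change of -1.26 for Tas1r3-/- against Tas1r3+/+ mice on ND (limma, unadjusted p of 0.00311, adjusted p = 0.891). The interaction of genotype and diet was 1.48 for Klf4 (limma, unadjusted p of 0.00731, and far from the threshold after adjustment), and no other of the 9 tested transcription factors reached an unadjusted p under 0.05. Between sexes, 7 of 13 tested hydrolases outside the members were lower in males at an unadjusted p under 0.05, among them Xpnpep2 (-1.27), Ggt1 (-1.39), Ace (-1.05) and Dpep1 (-0.92), as were the transporters Slc2a5 (-1.29), Slc5a1 (-0.99) and Slc7a9 (-1.01). In that fit 19.7% of all genes had an unadjusted p under 0.05 in either direction. After adjustment 0 genes of these 2 lists had p under 0.05 in limma. The 12 structural genes were lower in males as well (median -0.72).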
